A study of Mus musculus with 13 samples.

Results

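The genes described here are the mouse zinc finger genes whose symbol is Zfp followed by a number, as measured in primary mouse embryonic fibroblasts kept at 32°C or at 37°C. They were chosen by symbol and by level, since a gene had to reach a mean log2 intensity of 7.5 over all 13 arrays on its brightest row. Zfp36 and its relatives, which bind messenger RNA, were left out. The rule took 206 of 19938 genes measured, and another 134 genes with such a symbol lay below 7.5. Cells were commercial primary fibroblasts grown at 37°C to partial confluence, and the strain was not given in the sources used here. Hypothermia was started by lowering the incubator to 32°C, with arrays at 0.5, 1, 2, 4, 8 and 18 h, and normothermia was continued at 37°C for the same times. A single array at 0 h, labelled normothermia, starts both series. Each array carries RNA pooled from 3 dishes. Each temperature and time has 1 array and no replicate, and the arrays of different times supply the spread behind every test below. The number of arrays limits the precision.

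Zfp is the mouse prefix for zinc finger proteins, most of which carry an array of C2H2 fingers that reads a stretch of DNA. The largest branch of this family joins its fingers to a KRAB box, which recruits the corepressor Trim28 and through it the histone methyltransferase Setdb1, so that chromatin at the bound sequence is closed. Many of these proteins silence retroelements, and the genes lie in tandem clusters that grew by duplication. Messenger RNAs of zinc finger transcription factors are known as short-lived as a class. Other genes with the prefix code for activators, for RNA-binding proteins or for ribosome assembly factors, so the prefix marks a fold and not a function.

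The labelled cell type was read from its markers. All 12 fibroblast markers lay above the median of all genes, between 9.89 for Twist1 and 13.78 for Vim on the log2 scale, and their summed log2 intensity was 15.53 to 15.68 on the 6 arrays at 32°C and 15.63 to 15.66 on the 7 arrays at 37°C. Of 15 markers of other cell types, 14 lay below the median of all genes, the exception being the macrophage marker Cd68 at 7.65. Their summed log2 intensity was 10.13 to 10.37 at 32°C and 10.12 to 10.22 at 37°C. In the late difference (defined below), 0 markers of either list passed, 9 of 12 fibroblast markers lay below 0 with a range of -0.30 to 0.10, and 3 of 15 other markers lay below 0 with a range of -0.044 to 0.27. The lowest was Pdgfrb (-0.30 ± 0.07, SE, limma adjusted p = 0.0623) and the highest the macrophage marker Csf1r (0.27 ± 0.08, SE, limma adjusted p = 0.108). Their part in the results below was not tested. In pooled dishes, fewer cells that express a gene and less RNA per cell cannot be told apart.

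The levels of the 206 genes, which the rule used, are given as a description. The median of their mean log2 intensities was 8.47, against 7.54 for all genes, and the range was 7.504 to 12.48. Zfp706, Zfp207 and Zfp281 were the brightest, at 12.48, 11.50 and 11.05. Zfp207 is a spindle protein that binds Bub3, and Zfp281 is a regulator of pluripotency genes. The 3 genes just inside the limit were Zfp787 at 7.504, Zfp296 at 7.51 and Zfp109 at 7.52, and the 3 just outside it were Zfp105 at 7.49, and Zfp597 and Zfp563 at 7.47 each. The limit therefore cut through a continuous run of levels, and intensities of different genes are not comparable as amounts of RNA.

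Sequence upstream of the start was examined because many of these genes moved together. RefSeq promoters of build GRCm38.p6, from 250 bases before to 50 bases after a start, were matched by gene identifier for 163 of the 206 genes, with 202 promoters in all. Of 7 motifs searched on both strands, ACTACAA, part of the site known for Zfp143, had the largest ratio between the zinc finger genes and all genes. It was present in 16 of 202 promoters of the zinc finger genes (7.92%, in 15 genes), in 4.29% of 10405 promoters of genes with a mean log2 of at least 7.5, and in 3.57% of 19116 promoters of all genes measured. For the other 6 motifs the share in the zinc finger promoters is given first, then that in the promoters of genes with a mean log2 of at least 7.5, then that in all. GGGCGG was present in 101 of the 202, in 65.3% and in 49.3%, and so was less frequent than in promoters of genes of that level. The median share of G and C bases was 57.2% in the zinc finger promoters, 61.7% at that level and 57.7% in all. The part of base composition in the motif shares was not tested. TATAAA was present in 7.43%, 6.79% and 11.5%, and CACGTG in 6.44%, 10.3% and 8.26%. CCAAT was present in 40.6%, 37.2% and 37.4%. For CCGGAAG, with 18.8%, 18.1% and 12.1%, and for TGACGT, with 13.4%, 12% and 8.97%, the zinc finger promoters lay close to those of genes of like level. None of the 7 motifs contains another, and a match is a description of sequence and not a site in use.

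The 120 bases before the start are shown for 4 genes with ACTACAA in this stretch, whose late differences (32°C minus 37°C, defined below) were the most negative of those holding it. Capitals mark the motif, which lies on the other strand in all 4 and is therefore seen as its reverse complement. The windows are Zfp58 (chr13:67500523-67500642, minus strand), Zfp169 (chr13:48513411-48513530, minus strand), Zfp180 (chr7:24081777-24081896, plus strand) and Zfp93 (chr7:24270298-24270417, plus strand).
Zfp58: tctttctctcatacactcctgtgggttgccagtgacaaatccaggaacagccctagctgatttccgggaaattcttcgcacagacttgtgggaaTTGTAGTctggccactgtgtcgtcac
Zfp169: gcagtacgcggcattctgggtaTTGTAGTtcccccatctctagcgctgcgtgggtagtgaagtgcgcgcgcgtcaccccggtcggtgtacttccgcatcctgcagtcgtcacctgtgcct
Zfp180: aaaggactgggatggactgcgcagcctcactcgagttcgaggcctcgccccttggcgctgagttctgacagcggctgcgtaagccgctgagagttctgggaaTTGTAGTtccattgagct
Zfp93: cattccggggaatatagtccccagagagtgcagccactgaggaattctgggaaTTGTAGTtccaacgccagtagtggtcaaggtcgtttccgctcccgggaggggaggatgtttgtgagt

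The same stretch is shown for the 4 genes with the most negative late difference past the threshold, with capitals for any of the 7 motifs. Only Zfp638 held one in these bases, a GGGCGG. The windows are Zfp760 (chr17:21707621-21707740, plus strand), Zfp583 (chr7:6330435-6330554, minus strand), Zfp638 (chr6:83914233-83914352, plus strand) and Zfp109 (chr7:24237599-24237718, minus strand).
Zfp760: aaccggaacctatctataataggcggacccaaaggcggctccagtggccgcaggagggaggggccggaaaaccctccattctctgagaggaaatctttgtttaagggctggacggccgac
Zfp583: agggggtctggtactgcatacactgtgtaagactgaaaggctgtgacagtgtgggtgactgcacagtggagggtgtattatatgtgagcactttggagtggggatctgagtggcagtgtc
Zfp638: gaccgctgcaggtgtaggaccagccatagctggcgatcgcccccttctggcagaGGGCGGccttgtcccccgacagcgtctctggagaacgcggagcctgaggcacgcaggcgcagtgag
Zfp109: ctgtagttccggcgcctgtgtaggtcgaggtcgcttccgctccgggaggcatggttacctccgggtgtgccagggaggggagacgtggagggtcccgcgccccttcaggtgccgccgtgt

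The 15 genes holding ACTACAA had a median late difference of -0.11, and the 148 with a promoter and without it had one of -0.13. For TATAAA the median was -0.26 in the 15 genes with it and -0.12 in the 148 without it. For the remaining motifs the medians were -0.14 to -0.11 with the motif and -0.14 to -0.12 without it. These splits carry no test.

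The median of the genes lay below the 0 h array in the first hour at both temperatures, and it returned to near 0 only at 37°C. Against the array at 0 h, the median of the 206 genes was -0.081 at 0.5 h and -0.12 at 1 h in cells at 32°C, and -0.084 and -0.13 in cells at 37°C, on the log2 scale. At 2, 4, 8 and 18 h it was -0.14, -0.14, -0.085 and -0.16 at 32°C, whereas at 37°C it was -0.0074, 0.014, -0.00090 and 0.00070. The median of all 19938 genes stayed between -0.0006 and 0.035 at 32°C and between -0.0041 and 0.018 at 37°C. For genes with a mean log2 of at least 7.5 it lay between -0.034 and 0.023 at 32°C and between -0.033 and 0 at 37°C. In these genes it was lowest at 18 h at 32°C and at 1 h at 37°C. Both courses share the array at 0 h, so their early values are not independent of each other. At 32°C, where the median stayed below the start, the fall from the start rests on that single array.

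**Figure D1:**
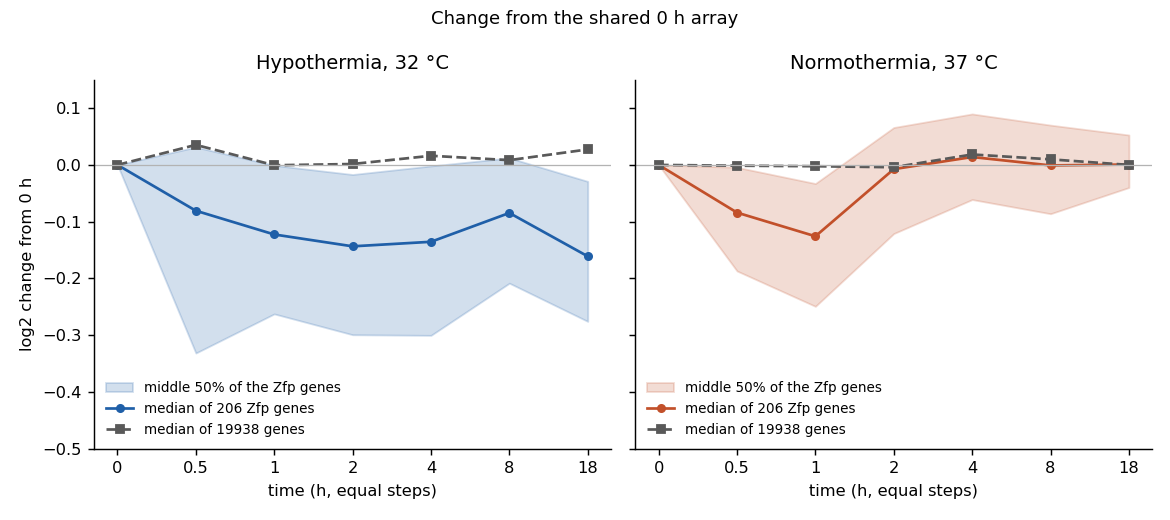
Change in log2 intensity from the shared 0 h array (vertical axis) by time in hours, drawn at equal steps, at 32°C on the left and at 37°C on the right. Lines join the medians of the 206 Zfp genes and of 19938 genes and the band holds the middle 50% of the Zfp genes. The Zfp median reaches -0.16 at 18 h at 32°C and is 0.00070 at 18 h at 37°C.

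The early dip at 37°C could be read within that series alone. For 88 of the 206 genes, both the 0.5 h and the 1 h array at 37°C lay below all 5 other arrays at 37°C. This was 42.7% of the genes, against 7.34% of all genes, which is the background for such a split, and 10.0% of genes with a mean log2 of at least 7.5. The opposite split, with both arrays above the other 5, was found for 4 of the 206 genes (1.94%, against 3.97% of all genes). Without the 0 h array, 91 of the 206 genes (44.2%) had both arrays below the 4 later ones at 37°C, against a background of 10.3%. At 32°C the corresponding count was 24 of 206 (11.7%), close to its background of 10.7%. The genes below 7.5 had the same split at 37°C in 55 of 134 cases (41.0%). Each of these values rests on 2 arrays, and array and time cannot be told apart.

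At 1 h, 139 of the 206 genes (67.5%) were below 0 h at both temperatures. This held for 32.0% of all genes and 38.3% of genes with a mean log2 of at least 7.5. At 18 h, 77 genes (37.4%) were below 0 h at 32°C and not below it at 37°C, against 17.9% and 24.9%. These shares describe single arrays and carry no test.

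The difference between the temperatures was next taken within each pair of arrays of the same time, as 32°C minus 37°C on the log2 scale. The median of the 206 genes was -0.0029 at 0.5 h, 0.0078 at 1 h, -0.11 at 2 h, -0.15 at 4 h, -0.083 at 8 h and -0.16 at 18 h. For all genes it stayed between -0.0016 and 0.029. In the first hour the middle of the group lay near 0, with 51% of the 206 genes lower at 0.5 h and 47.6% at 1 h. These shares were 39.5% and 48.7% of all genes, and 41.7% and 34.6% of genes with a mean log2 of at least 7.5. The medians of genes of that level were 0.031 at 0.5 h and 0.038 at 1 h. From 2 h onwards 150 to 163 of the 206 genes (72.8% to 79.1%) were lower at 32°C in each pair. This held for 44.1% to 50.4% of all genes and 41% to 58.5% of genes with a mean log2 of at least 7.5. At 0.5 h the middle 50% of the genes spanned -0.19 to 0.078, so single genes already lay apart.

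**Figure D2:**
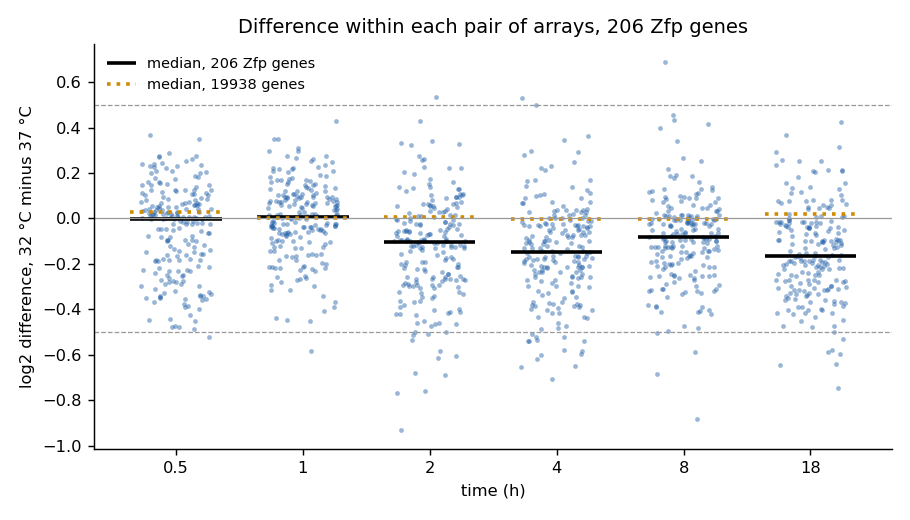
Log2 difference, 32°C minus 37°C, of each of the 206 Zfp genes (points) in the 6 pairs of arrays by time in hours, with dashed lines at 0.5 and -0.5. Solid bars mark the Zfp median and dotted bars the median of 19938 genes. The Zfp median lies at -0.11 or above up to 2 h, and at -0.15, -0.083 and -0.16 at 4, 8 and 18 h.

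A difference of -0.5 or less was reached by 1 gene at 0.5 h, 1 at 1 h, 12 at 2 h, 15 at 4 h, 4 at 8 h and 7 at 18 h. The background over all genes was 0.446%, 0.341%, 0.647%, 0.948%, 1.31% and 3% at these times, so that the 12 genes at 2 h were 5.83% and the 15 at 4 h 7.28% of the 206. The 7 at 18 h were 3.40%, close to the background, and the 4 at 8 h were 1.94%. Among genes with a mean log2 of at least 7.5 the shares were 0.636% at 2 h, 1.21% at 4 h, 1.95% at 8 h and 4.28% at 18 h. The zinc finger genes thus lay above genes of that level at 2 and 4 h and not at 8 and 18 h. In the other direction 1 gene reached 0.5 at each of 2, 4 and 8 h (0.485% each). This held for 0.637%, 0.647% and 0.692% of all genes. No pair has a replicate, so these counts carry no test.

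The sign of the difference was then counted over the pairs. In 6 of 6 pairs 38 genes (18.4%) were lower at 32°C, against a background of 2.92% over all genes and 4.21% of genes with a mean log2 of at least 7.5. In 6 of 6 pairs 6 genes were higher, namely Zfp580, Zfp330, Zfp64, Zfp365, Zfp653 and Zfp622, which is 2.91% against a background of 4.79%. Taking only 4, 8 and 18 h, 118 genes (57.3%) were lower each time. This held for 20.2% of all genes and 31.2% of genes with a mean log2 of at least 7.5. At those times 14 genes (6.8%) were higher each time, against 20% and 20.6%.

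**Figure D3:**
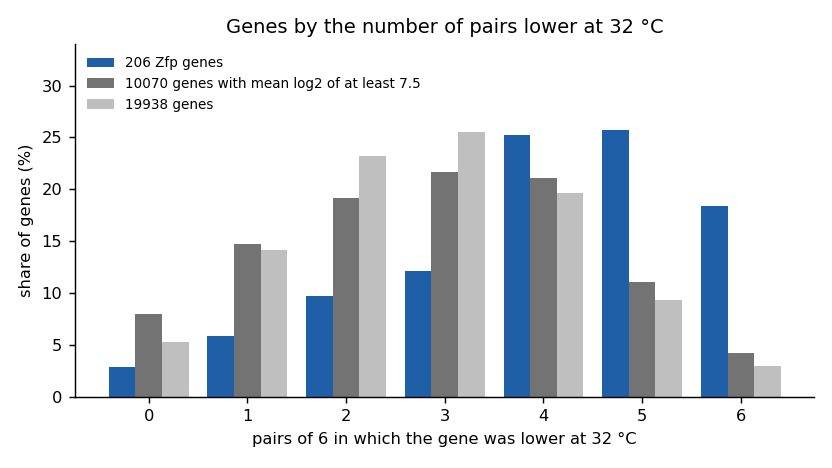
Share of genes in percent (vertical axis) by the number of the 6 pairs in which the gene was lower at 32°C, for the 206 Zfp genes, for 10070 genes with a mean log2 of at least 7.5 and for 19938 genes. The Zfp bars rise to 25.2%, 25.7% and 18.4% at 4, 5 and 6 pairs.

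The late temperature effect asked whether levels differed once cooling had lasted for hours. It is the mean difference over the pairs at 4, 8 and 18 h, fitted with limma over all genes with a separate early difference, and a gene was called at a Benjamini-Hochberg adjusted p under 0.05. At 32°C 18 of the 206 genes fell (8.74%, against a background of 2.15% of all genes) and 3 rose (1.46%, against 0.802%). Among genes with a mean log2 of at least 7.5 the shares were 3.43% and 1.31%. The median late difference was -0.13 for the 206 genes, -0.025 for genes with a mean log2 of at least 7.5 and 0.0099 for all genes. Of the 206 genes 165 had a difference below 0 (80.1%). This held for 46.5% of all genes and 57.1% of genes with a mean log2 of at least 7.5. After quantile normalization of the arrays the median was -0.092 and 12 genes were called lower. The number of calls depended on which times were included: 0 were called lower without the 8 h arrays, 0 without the 18 h arrays and 4 without the 4 h arrays, while the median stayed between -0.15 and -0.12. Leaving out the arrays at 0.5, 1 or 2 h gave 11, 6 and 15 called lower. The shares of all genes called in these refits are not given here.

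**Figure D4:**
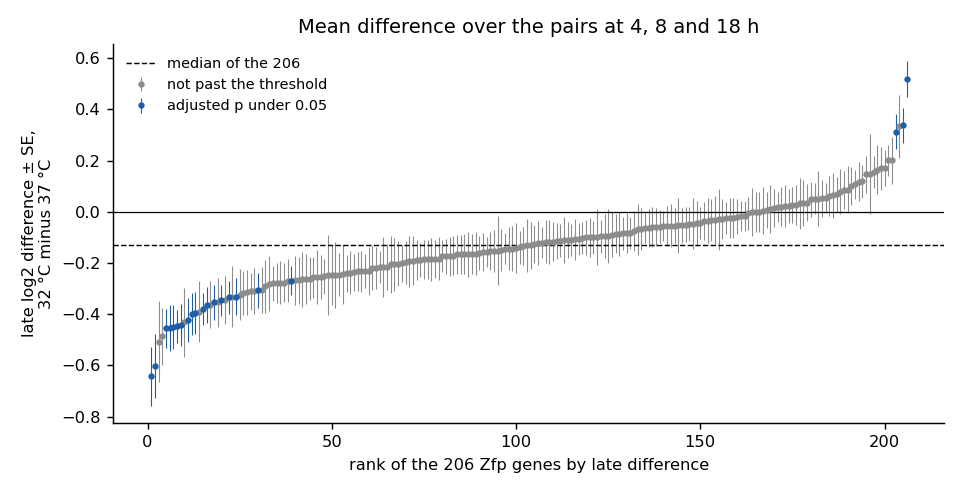
Late log2 difference, 32°C minus 37°C, of the 206 Zfp genes in order of size, with its standard error from limma. Coloured points passed the adjusted threshold, 18 below 0 and 3 above it, and the dashed line marks the median of -0.13.

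The genes with the most negative late differences among those called were Zfp760 and Zfp583. Zfp760 had log2 intensities of 8.33, 7.93 and 8.00 at 4, 8 and 18 h at 32°C, against 8.63, 8.81 and 8.74 at 37°C and 8.80 at 0 h. All late arrays at 32°C lay below all arrays at 37°C from 2 h on. Its late difference was -0.64 ± 0.12 (SE), a ratio of 0.641, with a limma adjusted p of 0.0287. Zfp583 had 7.74, 7.58 and 7.66 at 32°C, against 8.22, 8.26 and 8.30 at 37°C and 8.25 at 0 h. At 0.5 and 1 h its levels were 7.86 and 7.73 at 32°C and 7.92 and 7.79 at 37°C, and at 2 h they were 7.53 at 32°C and 8.30 at 37°C. The late difference of Zfp583 was -0.60 ± 0.12 (SE, limma adjusted p = 0.0388).

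Zfp638, a matrin-type protein that silences unintegrated retroviral DNA and takes part in splicing, was next. Its log2 intensities were 8.87, 9.26 and 9.23 at 32°C, against 9.53, 9.64 and 9.56 at 37°C, with a late difference of -0.46 ± 0.08 (SE, limma adjusted p = 0.0237). Zfp40 had 7.65, 7.82 and 7.82 at 32°C, against 8.16, 8.21 and 8.26 at 37°C. The 3 differences of Zfp40 agreed closely, from -0.51 to -0.39, and its adjusted p of 0.0133 (limma) was the lowest among the genes that fell. Zfp322a had 7.81, 8.12 and 8.03 at 32°C, against 8.46, 8.53 and 8.32 at 37°C. It was already 0.40 below its 37°C level at 0.5 h, as 7.75 against 8.15, and over all 6 pairs it was the single gene of the 206 that passed, at -0.44 ± 0.06 (SE, limma adjusted p = 0.0486). Over all 6 pairs the background was 0.0552% of all genes called lower and 0.015% called higher, and the one call was lost without any one of the time points.

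Zfp109 (-0.45 ± 0.09), Zfp367 (-0.44 ± 0.08), Zfp329 (-0.42 ± 0.09), Zfp62 (-0.40 ± 0.08) and Zfp942 (-0.40 ± 0.08, SE each) completed the 10 most negative calls, with limma adjusted p of 0.0307 to 0.0410. Zfp367 differed from the others in its course. It was near its start up to 2 h at 32°C, with 9.05, 9.12 and 9.13 against 9.21 at 0 h, and was then 8.79, 8.61 and 8.60 at 4, 8 and 18 h, whereas at 37°C these late values were 9.05, 9.09 and 9.19. Zfp512 and Zfp612, also called, were higher at 32°C in the 3 early pairs and lower in the 3 late ones. For Zfp612 the early difference was 0.25 ± 0.06 and the late one -0.35 ± 0.06 (SE), and the change between them of -0.60 ± 0.09 had a limma adjusted p of 0.0971. The other 6 called genes were Zfp317, Zfp248, Zfp719, Zfp458, Zfp971 and Zfp57, with late differences of -0.37 to -0.27, and each was lower at 32°C in 6 of 6 pairs.

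**Figure D5:**
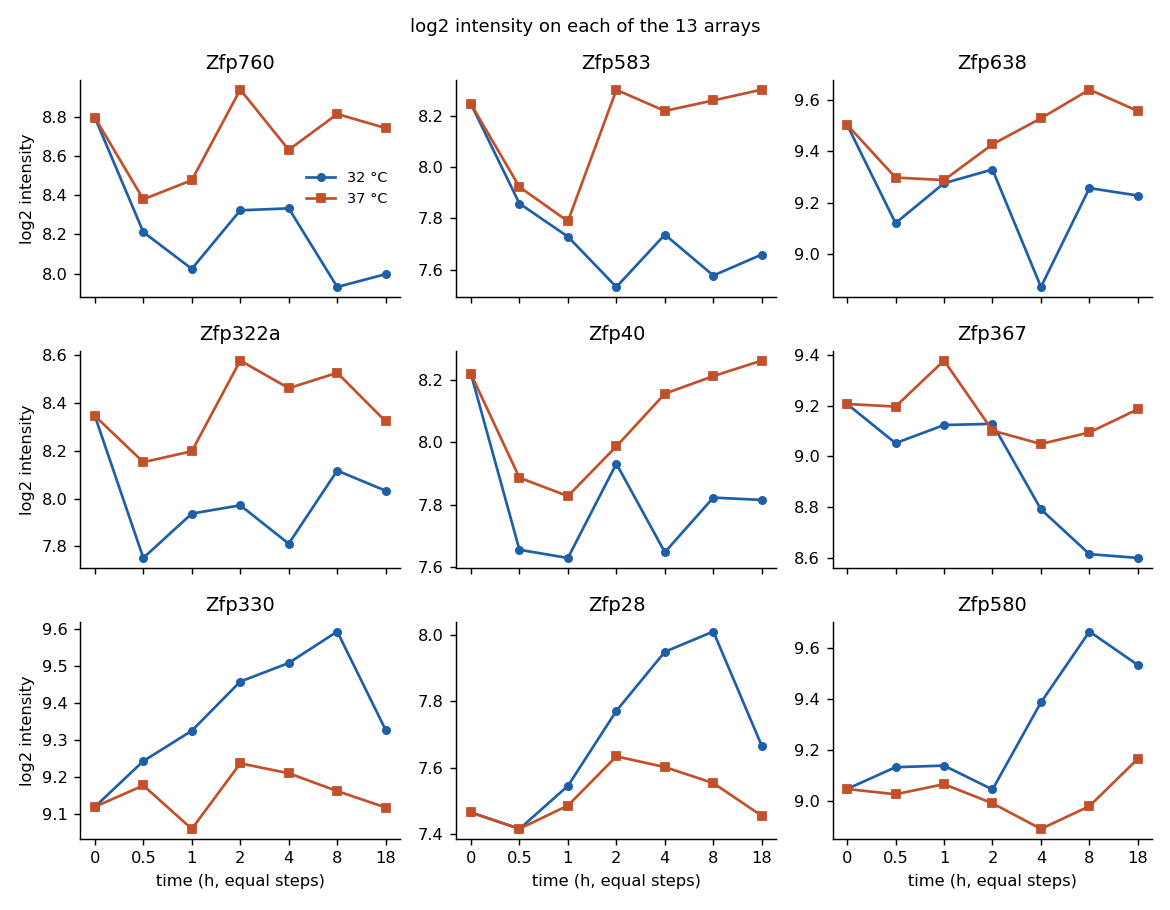
Log2 intensity on each of the 13 arrays for 9 Zfp genes by time in hours, drawn at equal steps, with circles for 32°C and squares for 37°C and 1 shared array at 0 h. The upper 6 genes were called lower and the lower 3 higher at 32°C, and Zfp583 parts at 2 h to 7.53 at 32°C and 8.30 at 37°C.

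The 3 genes that rose at 32°C ran against the rest. Zfp580 had log2 intensities of 9.39, 9.67 and 9.53 at 4, 8 and 18 h at 32°C, against 8.89, 8.98 and 9.17 at 37°C and 9.05 at 0 h. The late values at 32°C lay above every array at 37°C, and the late difference was 0.52 ± 0.07 (SE), a ratio of 1.43, with a limma adjusted p of 0.0122. Zfp28 had 7.95, 8.01 and 7.67 at 32°C, against 7.60, 7.55 and 7.46 at 37°C, with a late difference of 0.34 ± 0.07 (SE, limma adjusted p = 0.0359). Zfp330, which codes for a nucleolar protein, had 9.51, 9.59 and 9.33 at 32°C, against 9.21, 9.16 and 9.12 at 37°C, with a late difference of 0.31 ± 0.07 (SE, limma adjusted p = 0.0461). Zfp28 and Zfp330 were both highest at 8 h and nearer to the 37°C level at 18 h. Zfp810 (0.33 ± 0.12) and Zfp593 (0.20 ± 0.06, SE each) had the next lowest p among the positive differences and did not pass, with limma adjusted p of 0.189 and 0.108.

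The divergence from the common start weighs each of the 6 pairs by the order of its time point, as a line through 0 at 0 h. It takes in the 3 pairs of the late effect and so is not independent of that effect. By this measure 21 of the 206 genes fell at 32°C (10.2%, against a background of 1.66%) and 3 rose, namely Zfp580, Zfp330 and Zfp28 (1.46%, against 1.17%). Among genes with a mean log2 of at least 7.5 the shares were 2.52% and 1.96%. Zfp760 diverged by -0.14 ± 0.02 and Zfp583 by -0.13 ± 0.02 per step of time (SE), with limma adjusted p of 0.00586 and 0.0114. Zfp418, Zfp287, Zfp87, Zfp654, Zfp142, Zfp781 and Zfp84 passed here and not in the late effect. Zfp418 diverged by -0.12 ± 0.02 (SE, limma adjusted p = 0.0339), and its pair at 2 h, with 6.93 at 32°C and 7.86 at 37°C, held the most negative difference of any pair among the 206 genes, at -0.93. With a term that lets 32°C differ by a constant from 0.5 h on, 0 of the 206 genes were called in either direction, while 28 were lower (13.6%, against 8.6% of all genes and 14.5% of genes with a mean log2 of at least 7.5) and 6 higher (2.91%, against 4.85% and 5.14%) at an unadjusted p under 0.05. The share that was lower was thus no larger than among genes of that level. A line through 0 cannot tell a constant offset from one that grows.

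The early effect, over 0.5, 1 and 2 h, gave 0 calls among the 206 genes and 0 among all genes by limma. At an unadjusted p under 0.05, 36 of the 206 genes were lower (17.5%, against 3.1% of all genes) and 5 were higher (2.43%, against 4.18%). Among genes with a mean log2 of at least 7.5 the shares were 3.04% and 6.32%. The median early difference was -0.045, against 0.0079 for all genes and 0.029 for genes with a mean log2 of at least 7.5. Zfp971 (-0.35 ± 0.07), Zfp322a (-0.42 ± 0.09) and Zfp935 (-0.33 ± 0.07, SE each) had the lowest p, with limma adjusted p of 0.421 to 0.441. The change between the early and the late effect also gave 0 calls among the 206 genes, with 18 lower (8.74%, against 7.69% of all genes and 12.6% of genes with a mean log2 of at least 7.5) and 4 higher (1.94%, against 3.77% and 3.25%) at an unadjusted p under 0.05, so a later growth of the difference was not shown gene by gene.

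The trends within each temperature gave 0 calls among the 206 genes. At 32°C 25 genes were lower (12.1%, against 9.35% of all genes and 16.1% of genes with a mean log2 of at least 7.5) and 7 higher (3.4%, against 7.14% and 7.22%) with time at an unadjusted p under 0.05. At 37°C 0 were lower (against 2.18%) and 9 higher (4.37%, against 3.62%). The median slope per step of time was -0.012 at 32°C, where without the 0 h array it was 0.0030, and 0.011 at 37°C, where without the 0 h array it was 0.023. Zfp367 had the lowest p at 32°C, at -0.11 ± 0.02 per step (SE, limma adjusted p = 0.0676). By Kendall's tau, which asks only whether later arrays keep their order, 19 genes fell at 32°C (9.22%, against a background of 8.44%) and 8 rose (3.88%, against 8.82%), at an exact 1-sided p under 0.05. At 37°C 2 fell (0.971%, against 3.30%) and 10 rose (4.85%, against 4.99%). The share of steady falls at 32°C lay close to its background, and it was 14.1% among genes with a mean log2 of at least 7.5.

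By chromosome, the genes were spread unevenly, and their positions in clusters were not examined. Chromosome 7 held 50 of the 206 genes (24.3%, against 8.70% of all genes) and chromosome 17 held 21 (10.2%, against 4.69%). Chromosomes 13 and 8 held 16 each (7.77%, against 3.67% and 4.79%). Shares were smaller than among all genes on chromosomes 2 and 11, among others (4.37% against 8.69%, and 3.88% against 7.84%). On chromosome 13 all 16 genes had a late difference below 0, with a median of -0.24. The median was -0.16 on chromosome 7 and -0.16 on chromosome 17, and 45 of 50 and 18 of 21 genes lay below 0. On chromosome 8 it was -0.016, with 9 of 16 below 0. Over all chromosomes, 46.5% of all genes and 57.1% of genes with a mean log2 of at least 7.5 lay below 0. The medians of all genes on chromosomes 7, 17, 13 and 8 lay between 0.0050 and 0.018. Neighbours in a cluster are often near copies, and sharing of probes between them was not tested, so genes of a cluster are not separate observations.

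Of the 206 genes, 8 had another row on the array. For Zfp141 the other row had a late difference of -0.37, against -0.35 on the row used, for Zfp407 -0.20 against -0.28, and for Zfp825 -0.23 against -0.14. For Zfp319 it was -0.18 against -0.24, and for Zfp395 -0.15 against -0.18. The rows of Zfp664 and Zfp706 disagreed more, with -0.073 against -0.25 for Zfp664 and 0.025 against -0.083 for Zfp706. For Zfp788 both rows held the same values, so they do not count as 2 measurements.

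The genes of the family were grouped by what is known of them. Of 14 genes listed as transcriptional regulators that reached the level, 0 passed in the late effect. Which of them carry a KRAB box was not examined. By limma, 3 were lower and 0 higher at an unadjusted p under 0.05. The shares were 10.8% lower and 7.62% higher for all genes, and 17.3% and 9% for genes with a mean log2 of at least 7.5. The median of the 14 was -0.099. Of the 14, 12 lay below 0, against 46.5% of all genes and 57.1% of genes with a mean log2 of at least 7.5. Zfp462 was at -0.31 ± 0.09 (SE, limma adjusted p = 0.0969), Zfp467 at -0.22 ± 0.09 and Zfp521, a repressor of Ebf1 in fat and bone precursors, at -0.20 ± 0.08. Zfp281 was at -0.00070 ± 0.09, and Zfp503 was at 0.15 ± 0.16 (SE each).

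Of 12 genes with roles at RNA, the ribosome or ubiquitin, 1 fell (Zfp638) and 1 rose (Zfp330), against backgrounds of 2.15% and 0.802% of all genes. Their median was -0.049, with 7 of 12 below 0, near the 57.1% of genes with a mean log2 of at least 7.5. Zfp346, which binds double-stranded RNA, was at -0.49 ± 0.11 (SE, limma adjusted p = 0.0518), with 9.07, 9.18 and 9.57 at 4, 8 and 18 h at 32°C, against 9.78, 9.76 and 9.74 at 37°C. It lay lowest at 4 h and was nearer to the 37°C level at 18 h. Zfp593, a factor of large ribosomal subunit assembly, was at 0.20 ± 0.06, and Zfp622, which acts in the same path, at 0.068 ± 0.07. Zfp598, the ligase that marks collided ribosomes, was at -0.22 ± 0.08 (SE each).

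Of 4 genes known for silencing of retroelements or imprinted loci, 1 fell (background 2.15% of all genes). Zfp57, which keeps methylation at imprinting control regions, had 10.23, 10.36 and 10.22 at 32°C, against 10.54, 10.60 and 10.46 at 37°C, a late difference of -0.27 ± 0.06 (SE, limma adjusted p = 0.0421). Zfp445, with the same known role, was at -0.15 ± 0.07 and lower in 6 of 6 pairs. Zfp809, which silences retroviruses at their primer binding site, was at -0.11 ± 0.06, and Zfp568, a repressor of placental Igf2, at -0.029 ± 0.12 (SE each).

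The partners through which KRAB zinc finger proteins act were read as well. Of 21 such genes, 2 fell in the late effect and 0 rose (backgrounds of 2.15% and 0.802% of all genes), with a median of -0.15 and 18 of 21 below 0 (46.5% of all genes, and 57.1% of genes with a mean log2 of at least 7.5). Smarcad1, a remodeller that works with Trim28, was at -0.44 ± 0.07 (SE, limma adjusted p = 0.0218), and Setdb1 was at -0.34 ± 0.07 (SE, limma adjusted p = 0.0416). Trim28 itself, at a mean log2 of 11.18, was at -0.10 ± 0.07 (SE, limma adjusted p = 0.478). The medians were thus -0.15 for the partners, -0.13 for the 206 zinc finger genes and -0.073 for the 12 fibroblast markers.

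The zinc finger genes below 7.5 were set beside those above it, since the limit is arbitrary. Of these 134 genes 13 fell in the late effect (9.70%, against 2.15% of all genes) and 0 rose (against 0.802%), with a median of -0.088 and 98 below 0 (73.1%, against 46.5%). Zfp563, just under the limit, was at -0.44 ± 0.09 (SE, limma adjusted p = 0.0367). The dimmer genes of the same name lay in the same direction.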

How the data were processed

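The authors deposited linear intensity values of 28853 transcript clusters, from 4.24 to 18146.4, on 13 Affymetrix Mouse Gene 1.0 ST arrays of fibroblasts at 32°C or 37°C. The method of summarizing probes was not given in the sources used here. Array medians differed by 0.046 on the log2 scale, so values were log2 transformed without further scaling. Clusters with several symbols were left out, 40 of them with a Zfp symbol, and the brightest row stood for a gene.

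Models were fitted with limma 3.58.1 in R 4.3.3 over 19938 genes, all 13 arrays and time point as a block, with 2-sided Benjamini-Hochberg adjusted p. Trends used the 7 arrays of a temperature and the order of times. Tested on simulated data, the late effect recovered 99.5% of 200 genes changed by 1 on the log2 scale, with 7 false calls. Simulated noise was independent between arrays and scaled down from each gene's spread over the arrays. The largest late difference among the 206 genes was -0.64, so recovery and false calls at such sizes and spreads were not tested. Named genes were those with the most negative (10) or positive (5) late difference or divergence past the threshold, filled by lowest p, those of lowest p in other tests, the brightest and those next to the level limit. Genes, lists and tests were chosen with earlier results of these data known. Proteins were not analysed here. P-values measure the spread between arrays, which may be technical. Alternatives covered scaling, filters, level limits and leaving out each time.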

Additional observations from a re-analysis of the deposited data

Results flagged for a closer look

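Within each temperature, 35 genes named by rule and the median of the 206 genes were searched for an array far from the others of its series, 72 groups of arrays in all, of which chance alone would single out about 1 in 20. Such an array was found in 3 of them, each at 37°C. Zfp296 was highest at 8 h, at 7.70 on the log2 scale, with the next array at 7.55. Zfp575 was highest at 18 h, at 7.99, with the next array at 7.77. Zfp64 was lowest at 2 h, at 9.13, with the next array at 9.23. None of these genes was called in any comparison.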

How the results depend on the processing

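With 1 array per temperature and time, the number of calls in the late effect and the divergence depended on the scale and on most of the time points left out, the exceptions being 2 h in the late effect and 1 h in the divergence. The median of the 206 genes in the late effect kept its direction under every setting that keeps the log2 scale, from -0.15 to -0.092. Counts below are genes called lower, then higher. Fits across both temperatures compare arrays within the pair of the same time.

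For the late effect (18 and 3), leaving out 1 time gave 0 to 15 and 0 to 2, the arrays at 4, 8 and 18 h alone gave 0 and 0, relative ranks gave 0 and 0, a level limit of 8 gave 11 lower, and no limit gave 31 lower. For the divergence (21 and 3), leaving out 1 time gave 2 to 18 and 0 to 3, a separate term for 32°C gave 0 and 0, relative ranks gave 2 and 1, genes at or above the median level alone gave 32 lower, a limit of 8 gave 13 lower and no limit gave 37 lower. With the separate term Zfp322a turned to 0.0018 per step. The fit of the late arrays alone and the separate term both leave fewer degrees of freedom. The separate term also changed estimates and standard errors, and the median divergence went from -0.027 to -0.022 per step. For Zfp367 the divergence was -0.083 ± 0.014 without that term and -0.091 ± 0.034 with it (SE). Why calls were lost was not tested.

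Over all pairs (1 lower), the count was 0 without any 1 time, after quantile normalization, with relative ranks and with all transcript clusters, 2 among genes at or above the median level, 2 with a level limit of 7 and 2 with none, and 5 with a mean-variance trend. The trend at 32°C gave 2 lower among genes at or above the median level. By Kendall's tau at 32°C, 12 to 25 genes fell and 2 to 16 rose when 1 time was left out, and 12 fell after quantile normalization or with ranks. At 37°C, 1 to 6 fell and 2 to 29 rose when 1 time was left out, the 29 without the 0 h array, and a level limit of 7, of 8 or none gave 16, 6 and 20 that rose. Past a fold of 0.5, 40 differences of a gene within a pair were lower and 3 higher, past 0.32 these were 180 and 23, and past 1 they were 0 and 0. The medians of the time trends without 0 h stand in the report. The cause of these changes was not tested.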
